A study of Mus musculus with 8 samples.

Results

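The genes described here are 10 regulators of muscle atrophy and autophagy: the ubiquitin ligases Fbxo32, Trim63 and Fbxo30, the transcription factors Foxo1 and Foxo3, the growth inhibitor Mstn, and the autophagy and lysosome genes Bnip3, Ctsl, Gabarapl1 and Sqstm1. They were taken by name from a table of 54091 rows, with earlier results of these data known, and all 10 were found and were among the 15657 genes tested. Expression was measured by RNA sequencing of white quadriceps, a thigh muscle portion rich in fast glycolytic fibres, from male mice aged 11 to 14 weeks. Of the 8 libraries, 4 were labelled CKM Cre with Acot2 knocked out in muscle (Cre, replicates 5 to 8) and 4 Loxp/Loxp (Loxp, replicates 1 to 4). Every mouse had been fed a 60% fat diet for 7 days. CKM Cre is a Cre recombinase named for the muscle creatine kinase gene, which is active in muscle fibres, so other cells of the tissue are not its target. Cre was present only in the knockout group, so an effect of Cre itself and that of losing Acot2, a mitochondrial acyl-CoA thioesterase, cannot be told apart. Whether the libraries stem from separate animals is not stated in the labels, and the p-values measure only how these samples vary, which may be technical.

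Skeletal muscle loses mass when protein breakdown outruns synthesis. The FOXO factors, which insulin signalling through AKT keeps out of the nucleus, switch on the ligases atrogin-1 (Fbxo32), MuRF1 (Trim63) and MUSA1 (Fbxo30), which mark proteins for the proteasome, and also genes of autophagy, in which membranes enclose cell parts and deliver them to the lysosome. Myostatin (Mstn) is secreted by muscle fibres and limits muscle growth through activin receptors and SMAD proteins.

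The promoters of 9 of the 10 genes were matched in RefSeq sequences of build GRCm38.p6, each 250 bases before to 50 bases after the gene's RefSeq start. They were searched on both strands for GTAAACA, the letters a FOXO factor prefers, and CACGTG, the core of the site of TFEB, a master regulator of lysosome and autophagy genes. CACGTG reads the same on both strands, and the motifs share no match in these promoters. GTAAACA was found in 1 of the 9 (Trim63) and in 3.65% of 32851 promoters, and CACGTG in 2 of the 9 (Bnip3 and Ctsl) and in 7.15% of all. The 3 promoters with a match are shown 5′ to 3′ on the gene's strand, with the match in capitals. The Trim63 match begins 194 bases before the RefSeq start, in the opposite orientation, that of Bnip3 108 bases and that of Ctsl 236 bases before it. The Ctsl promoter lies wholly inside the gene span given for Ctsl below, which comes from another annotation, GENCODE. Its match is thus upstream of the RefSeq start but not of that span. The Fbxo30 promoter, without a match, also lies inside its gene span. A match is a stretch of letters, not a shown binding site.
Trim63, chr4:134314870-134315169, plus strand: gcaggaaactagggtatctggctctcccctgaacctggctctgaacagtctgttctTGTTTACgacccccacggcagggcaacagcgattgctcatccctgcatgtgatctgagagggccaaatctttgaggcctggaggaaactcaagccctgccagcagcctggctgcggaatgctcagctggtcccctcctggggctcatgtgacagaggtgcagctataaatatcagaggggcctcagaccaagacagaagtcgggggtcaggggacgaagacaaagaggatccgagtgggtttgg
Bnip3, chr7:138909457-138909756, minus strand: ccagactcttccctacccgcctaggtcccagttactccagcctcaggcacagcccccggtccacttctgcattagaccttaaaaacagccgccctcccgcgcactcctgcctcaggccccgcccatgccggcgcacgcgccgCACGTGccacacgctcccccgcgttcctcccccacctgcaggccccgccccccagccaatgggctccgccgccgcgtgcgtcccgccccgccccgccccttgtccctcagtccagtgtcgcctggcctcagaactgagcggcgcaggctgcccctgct
Ctsl, chr13:64370471-64370770, minus strand: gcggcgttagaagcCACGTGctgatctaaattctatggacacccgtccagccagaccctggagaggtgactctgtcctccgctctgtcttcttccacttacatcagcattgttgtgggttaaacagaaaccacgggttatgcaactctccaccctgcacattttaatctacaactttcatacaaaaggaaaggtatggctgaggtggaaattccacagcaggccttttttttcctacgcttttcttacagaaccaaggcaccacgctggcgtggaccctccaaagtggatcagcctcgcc

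The libraries held 55284020 to 74996035 recovered reads in the Cre group and 70275630 to 109101280 in the Loxp group. Acot2 had a normalized count of 256.4 to 354.0 in the Cre libraries and of 2166.2 to 4165.4 in the Loxp libraries, so the targeted gene matched the labels in all 8. The 12 markers of fast and slow muscle fibres summed to 12890239.9 to 14191481.1 in Cre and 11781543.4 to 14391672.3 in Loxp libraries. The most abundant markers set this sum, and single markers differed more. At an unadjusted p under 0.05 (limma), 3 of the 12 were higher in Cre and 2 lower, beside 13.6% and 13.3% of all tested genes. In Loxp replicate 3, Myh7 was at 15187.6 and Myh2 at 143499.9, against 1786.7 to 2837.5 and 58594.4 to 81532.2 in the other Loxp libraries. Loxp replicates 3 and 4 stood apart from the rest: on the first principal component, which held 34.5% of the variance, they lay at 55.2 and 56.1, against -38.6 to -19.5 for the Cre libraries and 0.6 and -3 for Loxp replicates 1 and 2. The values of the 10 genes and the list medians are therefore also given without them. Cre replicate 8 contained heart transcripts: markers of heart muscle summed to 12043.3 there, to 1291.4 to 1666.3 in the other Cre libraries and to 951.8 to 1529.1 in the Loxp libraries.

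None of the 10 genes passed the test between Cre and Loxp over all genes (limma, adjusted p under 0.05), a threshold that 0.00639% of all tested genes, 1 gene, passed. At an unadjusted p under 0.05, 4 of the 10 differed: Fbxo32, Mstn and Bnip3 were lower in Cre muscle and Ctsl was higher. That count is to be read against 26.9% of all tested genes at the same p (13.6% higher and 13.3% lower). The groups did not overlap for 3 of the 10, where 13.1% of all tested genes did not. Foxo1 was the 1 gene wholly higher in Cre (6.06% of all tested genes), and Fbxo32 and Mstn the 2 wholly lower (7.06%). Over the 10 genes, 4 estimates were above 0, as were 50.3% of all tested genes, and 6 below, with a median log2 difference of -0.10, against 0.003 over all genes tested. Without Loxp replicates 3 and 4, Mstn alone of the 10 had an unadjusted p under 0.05, where 7.98% of all tested genes did.

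**Figure D1:**
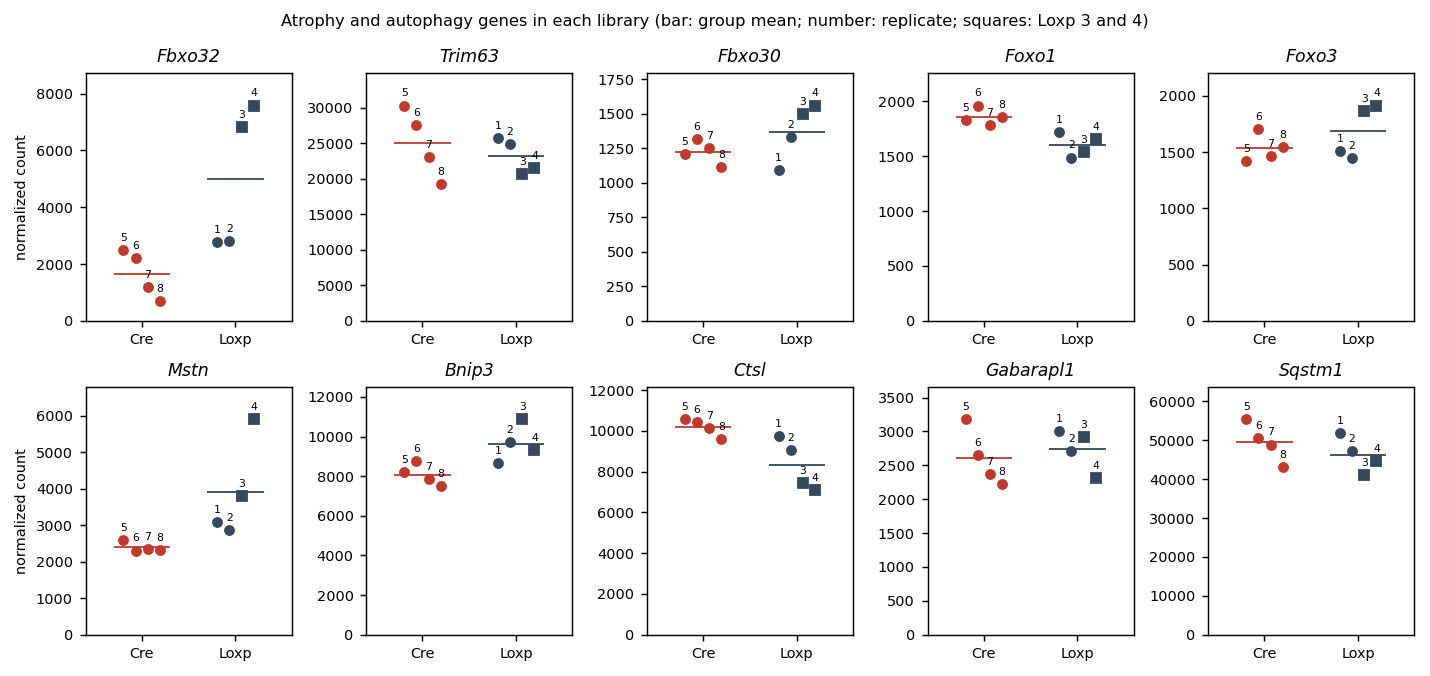
Normalized count (vertical axis from 0, its own scale in each panel) of each gene in the 4 Cre libraries (red, left) and the 4 Loxp libraries (dark, right), with the replicate number beside each point, squares for Loxp replicates 3 and 4 and a bar at each group's mean. Fbxo32 spans 687.3 to 7581.2 over the 8 libraries, while Trim63 spans 19335.0 to 30329.9.

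Fbxo32 (chromosome 15, 58175879 to 58214932, minus strand, GRCm38) encodes atrogin-1, the F-box subunit of a ligase that marks muscle regulators and myofibre proteins for breakdown. Its normalized count was 2481.2, 2200.2, 1201.7 and 687.3 in Cre replicates 5 to 8, against 2771.2, 2813.2, 6816.8 and 7581.2 in Loxp replicates 1 to 4. All Cre libraries were below all Loxp libraries, but both groups were split: Cre replicates 7 and 8 were far below the other Cre libraries, and Loxp replicates 3 and 4 far above the other Loxp libraries. The means were 1643 ± 841 in Cre and 4996 ± 2563 in Loxp (SD, n = 4 each), so that Cre muscle held 32.9% of the Loxp mean. The log2 difference was -1.62 ± 0.53 (SE, limma, adjusted p = 0.116), with an interval of -2.86 to -0.38 at 95% confidence. Over the libraries, a two-sided exact permutation yielded p = 0.0286, the lowest value possible with 4 against 4. Without Loxp replicates 3 and 4 the difference was -0.94 ± 0.62 (adjusted p = 0.726), with the Loxp mean at 2792.2. Cre replicate 8, which held the heart transcripts, was the lowest of all, and without it the difference was -1.26. Of the exon bases of Fbxo32, 2.7% lie opposite exons of Gm15943, and the strand setting of the counting is not known.

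Trim63 (chromosome 4, 134315120 to 134329629, plus strand) encodes MuRF1, a RING ligase of the sarcomere, and carries the FOXO-type letters shown above. Libraries of Cre replicates 5 to 8 had normalized counts of 30329.9, 27630.0, 23142.2 and 19335.0, against 25745.7, 24974.1, 20649.7 and 21589.4 in Loxp replicates 1 to 4. The 2 groups overlapped over most of their range, with the highest and the lowest library both in the Cre group. The log2 difference was 0.10 ± 0.14 (SE, limma, adjusted p = 0.688), with an interval of -0.21 to 0.40, and it was -0.04 ± 0.15 without Loxp replicates 3 and 4. A gain beyond 0.40 on the log2 scale is thus outside the interval, whereas Fbxo32, the other ligase best known from wasting muscle, had its whole interval below 0.

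Fbxo30 (chromosome 10, 11281330 to 11298052, plus strand) encodes MUSA1, an F-box protein that BMP signalling holds down. Its normalized count was 1206.2, 1314.2, 1252.8 and 1115.8 in Cre replicates 5 to 8, against 1094.3, 1329.3, 1500.1 and 1559.3 in Loxp replicates 1 to 4. Loxp replicates 3 and 4 were above all other libraries, and Loxp replicate 1 was below them. The log2 difference was -0.15 ± 0.13 (SE, limma, adjusted p = 0.456; interval -0.43 to 0.12), and 0.02 ± 0.13 without Loxp replicates 3 and 4.

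Foxo1 and Foxo3 encode the FOXO factors of muscle that drive the atrophy programme, and their activity is set mainly by phosphorylation, which RNA does not show. In Cre replicates 5 to 8, Foxo1 (chromosome 3, 52268336 to 52353221, plus strand) had a normalized count of 1826.7, 1961.7, 1785.4 and 1853.2, against 1720.1, 1488.0, 1538.2 and 1659.2 in Loxp replicates 1 to 4. Every Cre library was above every Loxp library, by a small margin. The means were 1857 ± 75.3 in Cre and 1601 ± 107 in Loxp (SD, n = 4 each), and the log2 difference was 0.21 ± 0.10 (SE, limma, adjusted p = 0.196; by exact permutation, two-sided, p = 0.0286). Leaving out Loxp replicates 3 and 4 gave 0.21 again, with an SE of 0.11 (adjusted p = 0.664). With the trend of transcript length and GC content removed from each library it was 0.51 ± 0.13 (adjusted p = 0.0671). At 8.66 kb, the Foxo1 transcript is the longest of the 10. Of the exon bases of Foxo1, 7.8% lie opposite exons of Gm20402, with the same uncertainty of strand as for Fbxo32.

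Foxo3 (chromosome 10, 42181841 to 42276755, minus strand) had a normalized count of 1420.4, 1703.7, 1463.3 and 1545.5 in Cre replicates 5 to 8, against 1512.2, 1448.9, 1866.4 and 1914.4 in Loxp replicates 1 to 4. Only Loxp replicates 3 and 4 were outside the Cre range. The log2 difference was -0.13 ± 0.12 (SE, limma, adjusted p = 0.520), 0.05 ± 0.12 without Loxp replicates 3 and 4 and 0.09 ± 0.10 with the trend removed, so the sign of the estimate depended on the fit. The third muscle FOXO gene, Foxo4, differed by -0.13 ± 0.11 (adjusted p = 0.483).

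Mstn (chromosome 1, 53061640 to 53068079, plus strand) encodes myostatin. The Mstn normalized count was 2594.5, 2307.3, 2358.7 and 2326.9 in Cre replicates 5 to 8, against 3097.2, 2879.5, 3801.7 and 5895.7 in Loxp replicates 1 to 4. All 4 Cre libraries were below all 4 Loxp libraries, and they lay close together, within 1.12-fold, where the Loxp libraries spanned 2.05-fold. The means were 2397 ± 133.5 in Cre and 3919 ± 1376 in Loxp (SD, n = 4 each), so that Cre muscle held 61.2% of the Loxp mean. The log2 difference was -0.65 ± 0.18 (SE, limma, adjusted p = 0.0796; interval -1.04 to -0.26; by exact permutation, two-sided, p = 0.0286), and 602 of the 15657 tested genes had a smaller unadjusted p. The difference was -0.43 without Loxp replicate 4, the highest library, and -0.32 ± 0.10 without Loxp replicates 3 and 4 (adjusted p = 0.605). The test was passed when Loxp replicate 1 was left out (-0.74, adjusted p = 0.0362), when Loxp replicate 2 was (-0.78, adjusted p = 0.0229) and with sample quality weights (-0.64, adjusted p = 0.0449). These fits called 11.0%, 13.1% and 6.03% of all tested genes, and over all 20 alternatives the adjusted p of Mstn ran from 0.0229 to 0.699. Gdf11, the closest relative of Mstn, differed by -0.19 ± 0.13 (adjusted p = 0.335), or by -0.07 with the trend removed.

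Bnip3 (chromosome 7, 138890836 to 138909519, minus strand) encodes a receptor on the outer mitochondrial membrane that recruits autophagosomes to mitochondria, and its promoter holds the CACGTG shown above. Bnip3 had a normalized count of 8210.3, 8746.8, 7858.9 and 7479.9 in Cre replicates 5 to 8, against 8682.7, 9718.1, 10861.0 and 9317.0 in Loxp replicates 1 to 4. The groups overlapped through 1 library each: Cre replicate 6 was above Loxp replicate 1. The log2 difference was -0.25 ± 0.11 (SE, limma, adjusted p = 0.150; by exact permutation, two-sided, p = 0.0571), and -0.19 ± 0.10 without Loxp replicates 3 and 4. The count is uncertain, because 16.5% of the 50-base windows of its transcripts also occur in other annotated genes, led by Gm16439 and Gm6532, and 22.3% of its exon bases lie opposite exons of Gm45507. Bnip3l, its paralog in mitochondrial clearance, differed by -0.18 ± 0.10 (adjusted p = 0.261), or by -0.06 with the trend removed.

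Ctsl (chromosome 13, 64359337 to 64370890, minus strand) encodes cathepsin L, a cysteine protease of the lysosome that rises in wasting muscle, and its promoter holds the other CACGTG. Normalized counts of Ctsl were 10557.4, 10415.6, 10132.2 and 9585.6 in Cre replicates 5 to 8, against 9749.1, 9038.3, 7449.9 and 7080.3 in Loxp replicates 1 to 4. Cre replicate 8 alone of the Cre libraries lay inside the Loxp range, below Loxp replicate 1. The means were 10173 ± 430 in Cre and 8329 ± 1272 in Loxp (SD, n = 4 each), and the log2 difference was 0.30 ± 0.12 (SE, limma, adjusted p = 0.134; interval 0.04 to 0.56; by exact permutation, two-sided, p = 0.0571). With Loxp replicates 3 and 4 left out it was 0.11 ± 0.10 (adjusted p = 0.768). Exon bases of Ctsl lie opposite exons of Gm47123 for 26.8% of its length and share the strand with Gm49230 for 6.1%, and the strand setting of the counting is not given in the sources used here, so reads of these genes cannot be told apart.

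Ctsl and other lysosomal genes are also high in macrophages, and macrophage markers were higher in Cre muscle as well. All 14 had higher estimates in Cre muscle, with a median log2 difference of 0.69 and 11 at an unadjusted p under 0.05, where 13.6% of all tested genes were higher, and none of the 14 was at 0. Without Loxp replicates 3 and 4 the median was 0.47, and 8 had that p, where 7.98% of all tested genes did. They summed to 13839.0 to 22100.6 in Cre and to 9443.3 to 13863.5 in Loxp libraries. Adgre1, a marker of mouse macrophages, was at 357.3 to 518.0 in Cre and 240.1 to 343.0 in Loxp libraries. Other markers differed little: Cd68 was at 0.18 ± 0.36, Cd163 at 0.06 ± 0.16 and Mpeg1 at 0.05 ± 0.16 (log2 difference, SE, limma). The part of macrophages in the Ctsl value was not tested. In whole tissue, more cells of a type and more RNA per cell cannot be told apart.

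Gabarapl1 (chromosome 6, 129533160 to 129542346, plus strand) encodes an ATG8 protein that is coupled to the autophagosome membrane. Of its exon bases, 28.3% lie opposite exons of 1700101I11Rik, so its count carries the same uncertainty of strand. Its normalized count was 3176.3, 2654.4, 2378.4 and 2220.6 in Cre replicates 5 to 8, against 3007.4, 2714.9, 2919.9 and 2314.8 in Loxp replicates 1 to 4. The groups overlapped throughout, and the log2 estimate was -0.08 ± 0.13 (SE, limma, adjusted p = 0.734; interval -0.36 to 0.21), or -0.15 ± 0.14 without Loxp replicates 3 and 4. The other ATG8 genes had estimates of 0.38 ± 0.13 for Gabarap (adjusted p = 0.105), 0.34 ± 0.14 for Gabarapl2 (0.143), 0.37 ± 0.15 for Map1lc3a (0.138) and 0.01 ± 0.11 for Map1lc3b (0.983). The 4 estimates without Loxp replicates 3 and 4 were 0.14, 0.15, 0.08 and -0.12, and after removal of the trend 0.20, 0.26, -0.01 and -0.03, so that of Map1lc3a changed sign with the trend removed and that of Map1lc3b in both fits.

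Sqstm1 (chromosome 11, 50199366 to 50210827, minus strand) encodes p62, the receptor that carries ubiquitin-marked cargo to autophagosomes. Of its exon bases, 17.3% lie opposite exons of Mrnip, with the same uncertainty. Normalized counts of Sqstm1 were 55349.2, 50695.6, 48914.4 and 43081.1 in Cre replicates 5 to 8, against 51796.7, 47290.7, 41186.0 and 44566.4 in Loxp replicates 1 to 4. The groups overlapped, and the log2 difference was 0.10 ± 0.12 (SE, limma, adjusted p = 0.605; interval -0.15 to 0.35), or -0.01 ± 0.11 without Loxp replicates 3 and 4.

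Levels of different genes were compared per kilobase of each gene's principal transcript, since the deposited values are not divided by length. Sqstm1 was the highest of the 10, at 24305 ± 2490 normalized counts per kb in Cre and 22685 ± 2201 in Loxp (SD, n = 4 each), and Trim63 was next, at 13314 ± 2576 in Cre and 12322 ± 1325 in Loxp. Ctsl and Bnip3 followed, with 5161 ± 218 and 4598 ± 307 in Cre and 4226 ± 645 and 5492 ± 522 in Loxp, so their order differed between the groups. Gabarapl1 lay at 1433 ± 231 in Cre and 1505 ± 169 in Loxp, and Mstn at 886.1 ± 49.3 in Cre and 1449 ± 509 in Loxp, within each other's spread in Loxp but not in Cre. The 4 lowest genes, Fbxo32, Fbxo30, Foxo3 and Foxo1, had means of 214.3 to 241.6 in Cre and of 184.8 to 716.1 in Loxp. In Cre muscle the SD of Fbxo32, 120.5, was wider than the gaps between these 4 genes. Trim63 and Fbxo32 thus differed widely in level per kb.

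**Figure D2:**
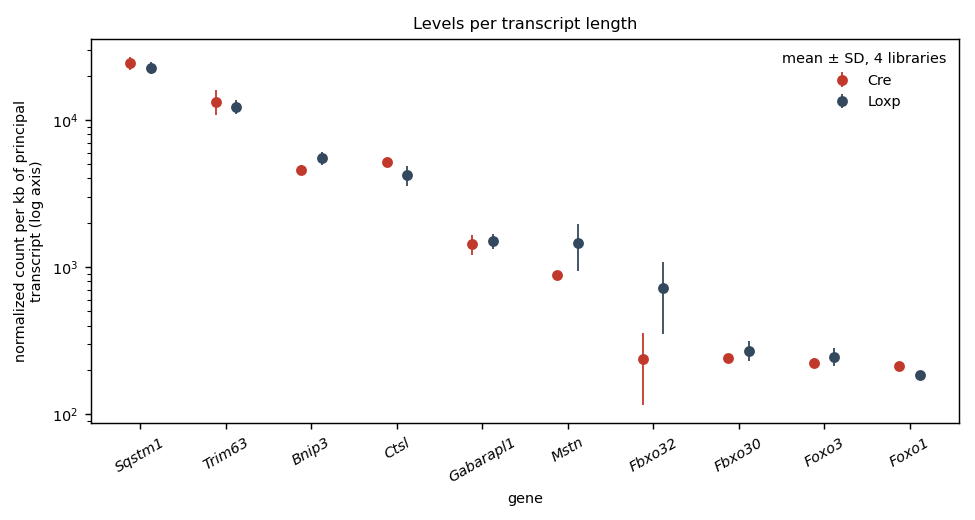
Normalized count per kb of principal transcript (log axis) for the 10 genes, ordered by their Loxp mean, with mean and SD over 4 Cre libraries (red, left of each pair) and 4 Loxp libraries (dark, right). Sqstm1 and Trim63 are the highest, with Cre means of 24305 and 13314, and Fbxo32 is the only one of the 4 lowest genes whose Loxp mean is far above its Cre mean.

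**Figure D3:**
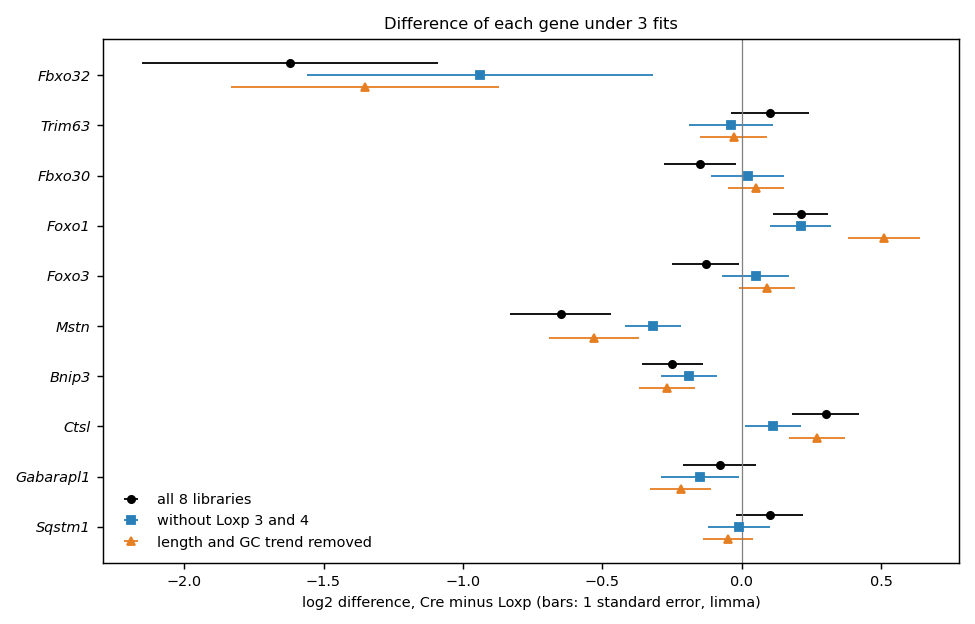
Log2 difference of Cre minus Loxp with 1 standard error (limma) for each gene, with all 8 libraries (circles), without Loxp replicates 3 and 4 (squares) and with the length and GC trend removed (triangles). Fbxo32, Mstn, Bnip3 and Gabarapl1 stay below 0 in all 3 fits, and Foxo1 and Ctsl above 0. The estimates of Trim63, Fbxo30, Foxo3 and Sqstm1 change sign.

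The 10 genes did not share a profile over the libraries. Fbxo32, Mstn, Fbxo30 and Foxo3 had their highest values in Loxp replicates 3 and 4, whereas Ctsl had its lowest values there. Trim63, Gabarapl1 and Sqstm1 were highest in Cre replicate 5 and were at or near their lowest in Cre replicate 8. The closest pair by root mean square difference of centred log2 values was Trim63 and Sqstm1, at 0.095. Among all other tested genes, the nearest profile to Mstn was that of Schip1, at 0.091, with a log2 difference of -0.64 ± 0.21 (limma, adjusted p = 0.0923). For Fbxo32 it was LOC100534287, at 0.30 and at low counts, and for Trim63 it was Srebf1, a regulator of lipid synthesis genes, at 0.063. The nearest to Foxo1, Foxo3 and Fbxo30 were Noc4l at 0.054, Extl2 at 0.038 and Ago4 at 0.043. For Ctsl, Bnip3, Gabarapl1 and Sqstm1 they were Clpp at 0.034, Nup88 at 0.051, Fiz1 at 0.047 and Kdsr at 0.051. These distances over 8 libraries describe likeness of profile only.

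**Figure D4:**
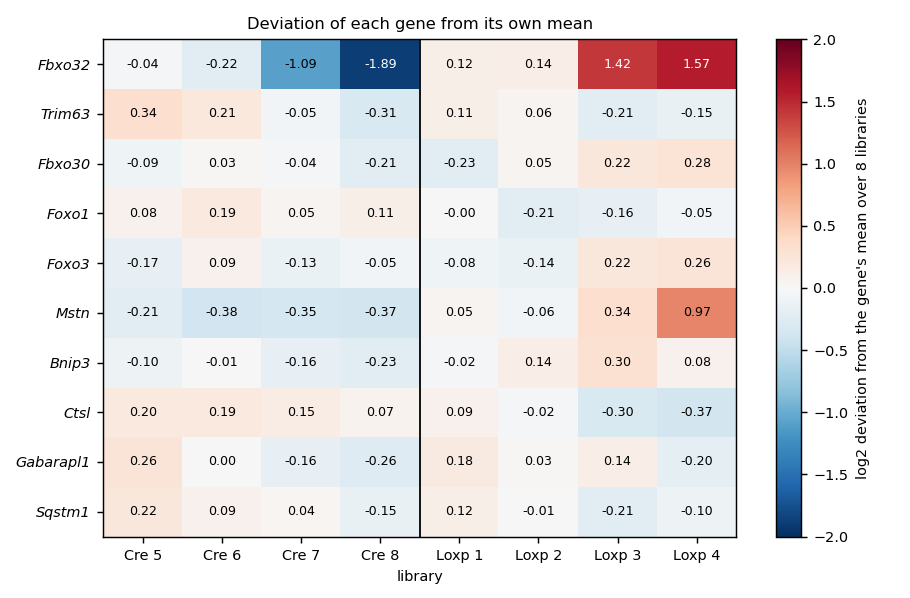
Log2 deviation of each gene (rows) from its own mean over the 8 libraries (columns, 4 Cre left of 4 Loxp), red above and blue below. Fbxo32 runs from -1.89 in Cre replicate 8 to 1.57 in Loxp replicate 4, and Foxo1 stays within -0.21 and 0.19.

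Around these genes, ligases and regulators of the same pathways were counted from lists that include the members, and no gene of any list passed over all genes. The counts below, at an unadjusted p under 0.05, stand beside 13.6% of all tested genes higher and 13.3% lower. At that p, 3 of 25 atrophy ligases were higher and 7 lower, with a median log2 difference of -0.15. Nedd4, a HECT ligase induced in denervated muscle, differed by -0.72 ± 0.17 (SE, limma, adjusted p = 0.0796), its relative Wwp1 by -0.62 ± 0.17 and Fbxl22, an F-box protein of the sarcomere, by 0.92 ± 0.21 (both also 0.0796). Nedd4 was at 12765.7 to 16751.6 in Cre and 19125.7 to 31427.8 in Loxp libraries, with its 2 highest values in Loxp replicates 3 and 4. Without these libraries the log2 difference was -0.40 for Nedd4 and -0.24 for Wwp1. Fbxl22 was at 376.2 to 793.5 in Cre and at 267.7 to 360.7 in Loxp libraries, with no overlap, and its log2 difference without Loxp replicates 3 and 4 was 0.76.

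Of 25 FOXO regulators and targets, 2 were higher and 5 lower at that p, close to the 26.9% of all tested genes in either direction, with a median of -0.09. Mtor, the kinase that promotes protein synthesis and restrains autophagy, differed by -0.75 ± 0.17 (limma, adjusted p = 0.0796), its partner Rptor by -0.42 ± 0.14 (0.0915) and the metallothionein Mt1, induced in wasting muscle, by 0.68 ± 0.18 (0.0796). In the myostatin, activin and BMP list, 4 of 29 were higher and 7 lower, with a median of -0.05. Acvr2a, a receptor for activins and myostatin, differed by -0.72 ± 0.19 (limma, adjusted p = 0.0796), the BMP antagonist Nog by 0.57 ± 0.18 (0.0882) and the secreted protein Fstl1 by 0.45 ± 0.15 (0.0914). Without Loxp replicates 3 and 4 the log2 differences of Mtor, Rptor and Mt1 were -0.40, -0.20 and 0.39, and those of Acvr2a, Nog and Fstl1 were -0.33, 0.33 and 0.49.

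Among genes that start autophagy, 9 of 14 were lower and 1 was higher at that unadjusted p, with a median of -0.32. The scaffold Ambra1 differed by -0.56 ± 0.14 (limma, adjusted p = 0.0796), the energy sensor subunit Prkaa2 by -0.59 ± 0.18 (0.0810) and the ULK complex member Atg101 by 0.48 ± 0.14 (0.0810). The list median was -0.12 without Loxp replicates 3 and 4, where 2 genes had that p, and -0.17 with the trend removed. With those libraries left out, the log2 differences were -0.36 for Ambra1, -0.22 for Prkaa2 and 0.21 for Atg101. Of 23 elongation and conjugation genes, 3 were higher and 4 lower, with a median of 0.01. Here Atg9a, the membrane protein that seeds autophagosomes, was at 3695.1, 2930.2, 2384.7 and 2644.3 in Cre replicates 5 to 8, against 4669.3, 4033.0, 6730.0 and 6730.9 in Loxp replicates 1 to 4, with no overlap. Its log2 difference was -0.91 ± 0.18 (limma, adjusted p = 0.0796), and -0.59 without Loxp replicates 3 and 4. The protease Atg4a and the lipid transfer protein Atg2a differed by -0.57 ± 0.16 (0.0796) and -0.54 ± 0.17 (0.0867), or by -0.38 and -0.24 without these libraries.

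Of 14 receptors and mitophagy genes, 1 was higher and 4 lower, with a median of -0.18. The mitophagy receptor Bcl2l13 differed by -0.60 ± 0.14 (limma, adjusted p = 0.0796), the cargo receptor Tax1bp1 by -0.35 ± 0.11 (0.0839) and Fkbp8 by 0.45 ± 0.16 (0.109). With Loxp replicates 3 and 4 left out these values were -0.36, -0.22 and 0.13. Of 31 genes of the lysosome list, 11 were higher and 2 lower, against 13.6% and 13.3% of all tested genes, with a median of 0.15. The list also holds regulators: the 11 include Tfeb, at 0.27 ± 0.12, and the protease inhibitor Cst3, at 0.48 ± 0.14. The protease Ctsd was at 39500.0 to 56547.5 in Cre and 25617.5 to 37775.5 in Loxp libraries, with no overlap, and its log2 estimate was 0.59 ± 0.14 (limma, adjusted p = 0.0796). Lgmn, another protease, differed by 0.49 ± 0.13, the cholesterol exporter Npc1 by -0.95 ± 0.20 (both also 0.0796) and the protease Ctsb by 0.04 ± 0.10 (0.820; 0.22 with the trend removed). The log2 differences of Ctsd, Lgmn and Npc1 were 0.39, 0.37 and -0.62 when Loxp replicates 3 and 4 were left out. The macrophage markers described beside Ctsl had higher estimates in Cre muscle too, and their part in these values was not tested.

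Of 35 proteasome genes, 16 had higher and 2 had lower levels at that p, against 13.6% and 13.3% of all tested genes, with 32 estimates above 0 and a median of 0.24. Psmb5, a catalytic subunit, differed by 0.73 ± 0.19 (limma, adjusted p = 0.0796), Psmd13 by 0.56 ± 0.15 (0.0796) and Psmb6 by 0.53 ± 0.16 (0.0821). Psmb5 was at 8187.0 to 11562.6 in Cre libraries, against 7925.7, 8087.2, 4713.2 and 4644.1 in Loxp replicates 1 to 4, with Loxp replicates 3 and 4 far below the rest. Without these libraries Psmb5, Psmd13 and Psmb6 differed by 0.34, 0.28 and 0.20, the list median was 0.08, and 2 of 35 genes had that p, below the 7.98% of all tested genes that did. Of 8 calpains and caspases, 0 were higher and 3 lower at that p, with Capn3 at -0.37 ± 0.12 (0.0950), Cast at -0.34 ± 0.14 and Xiap at -0.43 ± 0.18 (0.145 each). These 3 were at -0.16, -0.07 and -0.05 without Loxp replicates 3 and 4. Of 13 denervation genes, 1 was higher and 2 lower, with a median of -0.05, with Hdac4 at -0.29 ± 0.11 (0.131) and Ncam1 at -0.46 ± 0.21 (0.178), or -0.25 and -0.15 without Loxp replicates 3 and 4.

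Several of these log2 differences were also nearer to 0 after removal of the trend of length and GC content. They were -0.38 for Wwp1, 0.31 for Mt1, -0.27 for Rptor, 0.34 for Nog, 0.18 for Atg101 and -0.34 for Prkaa2. For Bcl2l13, Tax1bp1 and Fkbp8 they were -0.34, -0.23 and 0.12, for Psmb5 and Psmb6 0.40 and 0.20, and for Xiap, Hdac4 and Ncam1 -0.22, -0.03 and -0.22. Not all shrank: Atg9a and Atg4a hardly moved, at -0.88 and -0.55, and Fbxl22 and Fstl1 were farther from 0, at 1.04 and 0.58.

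The list medians lay nearer to 0 in most lists when Loxp replicates 3 and 4 were left out, a fit in which 7.98% of all tested genes had an unadjusted p under 0.05. They were -0.08 for the atrophy ligases, with 3 genes at that p, -0.02 for the FOXO list, with 3 genes, and -0.03 for the myostatin, activin and BMP list, with 5. Elongation and conjugation genes had a median of -0.08, with 2 genes at that p, and receptors and mitophagy genes one of -0.19, with 3, both farther from 0 than with all libraries. The lysosome list had a median of 0.08, with 7 genes, calpains and caspases one of -0.07, with 0, and denervation genes one of 0.03, with 1.

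**Figure D5:**
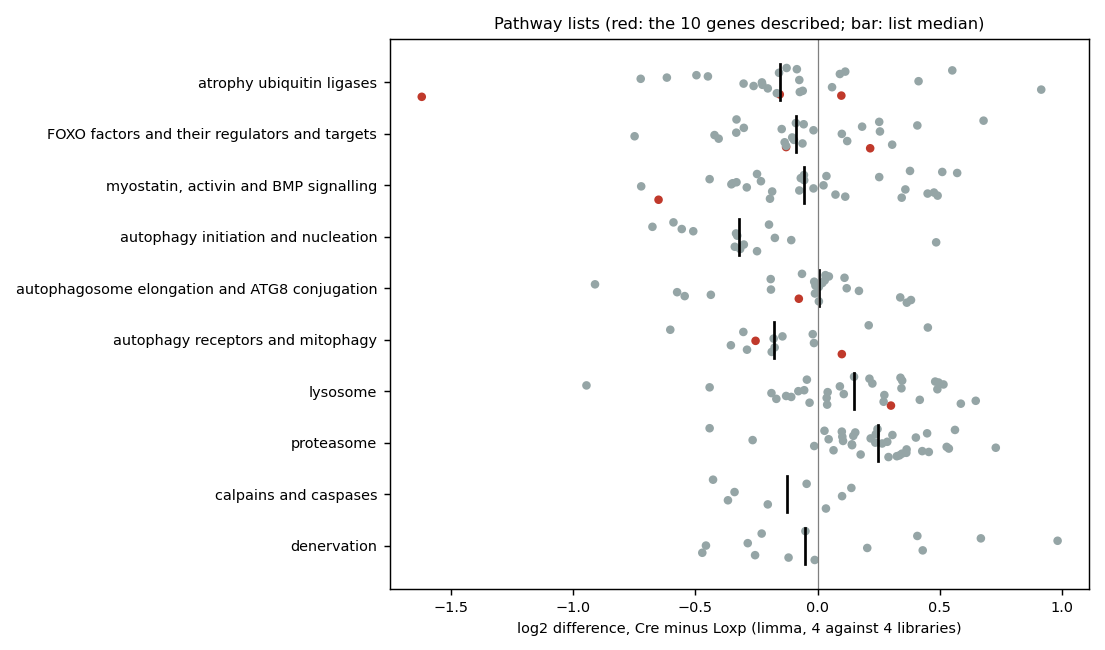
Log2 difference of Cre minus Loxp (limma, 4 against 4 libraries) for each tested gene of 10 pathway lists, 1 row per list, with the genes described above in red and the list median as a bar. Genes that start autophagy have a median of -0.32 and proteasome genes one of 0.24, and Fbxo32, at -1.62, lies below every other point.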

How the data were processed

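RNA of white quadriceps from 8 samples was measured by RNA sequencing. Per the labels' protocols, the kits were from Norgen Biotek for extraction and NEBNext Ultra II for library preparation. Per the submitters' processing notes, the tools were STAR, HTSeq, cutadapt, DESeq2 and FastQC, and the build GRCm38. For these tools, versions, settings and strand handling were not given in the sources used here.

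Values were deposited by the authors as log2. With the log2 undone and 1 subtracted, each library's values are whole multiples of 1 step (0.679 to 1.29), so they are taken as log2(normalized count + 1); 100% of values from 1 to 1000 reads lay within 0.1 of a whole read. One read is worth 1 step, and 3 reads, the floor for a gene not detected, are a normalized count of 2.04 to 3.87, for counting error only. In all, 27 gene names turned into dates were restored through Entrez identifiers.

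The 15657 genes whose normalized counts averaged 10 or more were fitted with limma 3.58.1 in R 4.3.3 (eBayes with trend and robust, Benjamini-Hochberg adjustment over all of them, threshold 0.05). Fold changes are on the log2(normalized count + 1) scale. Since the unit is log2, no count model was used; limma voom on recovered reads is an alternative. Lengths and GC content are those of the principal transcript in GENCODE M21 (GRCm38), and their trend was removed per library with loess (span 0.5). The fit was tested on simulated reads with the same dispersion for every gene. They held neither the split of Loxp replicates 3 and 4 nor the length and GC trend, so the test does not cover these. Named genes are the 10 members, close relatives, the 3 of smallest p in each list and the nearest profile of each member. One gene that this rule names is not reported here. The members and lists were chosen with earlier results of these data known. As alternatives, the pseudocount, filter, scaling and variance model were varied, beside voom, the trend removal and libraries left out. Plots were drawn with matplotlib 3.10.9, and tables made in Python 3.11.15 with scipy 1.17.1, pandas 2.3.3 and numpy 2.4.6.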

Additional observations from a re-analysis of the deposited data

How the results depend on the processing

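No paired analysis was possible because the groups share no replicate numbers. Of the 10 genes, Fbxo32, Foxo1, Mstn, Bnip3, Ctsl and Gabarapl1 kept their direction under all 20 alternatives: log2 differences ran from -1.88 to -0.89, 0.18 to 0.51, -0.78 to -0.28, -0.30 to -0.19, 0.10 to 0.38 and -0.22 to -0.0046 in turn. The others turned. Without Loxp replicates 3 and 4, with the trend removed, and with both, Trim63 was at -0.0352, -0.0273 and -0.0608, Fbxo30 at 0.0166, 0.0514 and 0.0658, Foxo3 at 0.0473, 0.0895 and 0.085, and Sqstm1 at -0.0053, -0.0473 and -0.0451. With 1 library left out at a time, Trim63 ran from -0.001 to 0.22, the lowest without Cre replicate 5. The cause of these turns was not tested.

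The count of genes past the threshold, 1 as reported, was 2 with no filter, 2 with equal totals, 7 without trend and robust options, 944 with sample quality weights and 6 with the trend removed. It ran from 1 to 2048 with 1 library left out, and was 1722 without Loxp replicate 1 and 2048 without Loxp replicate 2. Of the 10 genes, 1 (Mstn) passed with sample quality weights, and 0 to 1 with 1 library left out. At an unadjusted p under 0.05 by limma there were 4 of the 10, beside 26.9% of all tested genes. With the trend removed there were 5, beside 22.7%, and without Loxp replicates 3 and 4 there was 1 (Mstn), beside 7.98%. With both changes there were 2 (Mstn and Foxo1). With 1 library left out there were 1 to 5: 1 without Loxp replicate 3 and 2 without Loxp replicate 4. For these last fits the share over all tested genes was not counted, so their counts say nothing about the 10 genes as a set. All 10 genes were far above the floor of 3 reads. Loxp replicates 3 and 4 were also the deepest libraries, at 85095801 and 109101280 recovered reads, and an effect of depth was not tested.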

Other observations

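The 2 best known atrophy ligases both fell at each step from Cre replicate 5 to Cre replicate 8. So did Ctsl, Gabarapl1 and Sqstm1, and no order is stated for the replicate numbers. The 2 ligases parted in Loxp replicates 3 and 4. There Fbxo32 was above and Trim63 below the other Loxp libraries. Per kb of transcript, the ratio of Trim63 to Fbxo32 was 45.2, 46.4, 71.2 and 104 in Cre replicates 5 to 8, against 34.4, 32.8, 11.2 and 10.5 in Loxp replicates 1 to 4. This ratio was chosen after its values were seen and was not tested. For the ratio, every Cre library was above every Loxp library, and within both groups the libraries fell into a nearer and a farther pair. Fbxo32 alone already separated the groups, and the share of other gene pairs that do so was not counted. Among the 6306 tested genes whose normalized counts averaged 1000 or more, 5 had a wider range over the 8 libraries than Fbxo32, which spanned 11.0-fold. The range of Mstn, 2.56-fold, was exceeded by 4.3% of these genes, and that of Trim63, 1.57-fold, by 44.3%, with a median over the set of 1.52-fold.

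Adipocyte markers summed to 8244.3 to 19734.4 in Cre and to 6549.1 to 15681.8 in Loxp libraries, with 0 of 6 at an unadjusted p under 0.05 by limma. All 8 fibro-adipogenic progenitor markers had estimates above 0, with a median log2 difference of 0.46. Of these, 6 had that p, where 13.6% of all tested genes were higher. Without Loxp replicates 3 and 4 the median was 0.27 and 2 had that p, where 7.98% of all tested genes did. The progenitor markers summed to 177949.6 to 236356.8 in Cre and to 137401.7 to 178204.0 in Loxp libraries. Gsn made up the largest part, at 108121.0 to 122191.8 in Cre and 76373.3 to 104807.8 in Loxp libraries. With all 8 libraries, Pdgfra hardly differed, at 0.01 ± 0.12 (SE, limma, adjusted p = 0.977). Dcn was at 0.19 ± 0.14 (adjusted p = 0.391).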
